A study of Mus musculus with 18 samples.

Results

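Distal colon of Il1f9 knockout mice was compared with distal colon of Il1f9 wild-type mice during chemically induced colitis. The comparison holds 4 of the 18 libraries of the series and was read across all 54532 gene identifiers of the deposited table, of which 18299 had enough counts to be tested. The libraries were chosen by their labels alone. The groups are called KO (Il1f9-/-, libraries KO 1 and KO 2) and WT (Il1f9+/+, libraries WT 1 and WT 2), with n = 2 in each. All were C57BL/6 mice that drank 2.5% dextran sulfate sodium (DSS), a polymer that injures the colon epithelium, for 5 days and plain water for the next 2 days. A 0.5 cm piece of flushed colon, taken about 0.5 cm above the anus, was used whole, so that epithelium, immune cells, connective tissue and muscle share each library. The labels give neither age nor sex, litter or batch, and they do not say how the Il1f9 allele was made or whether a replicate was 1 mouse. With groups of this size the p-values rest on a spread shared over all 10 colitis libraries, those of an Il1f5 line included. That is still a spread between few libraries.

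The other libraries used here are 3 libraries labelled KO and 3 labelled WT of an Il1f5 line, from colitis with the same treatment, and 2 KO and 2 WT libraries of colorectal tumours of the Il1f9 line from the azoxymethane and DSS model. In the Il1f5 line the targeted gene went against the labels. Il1f5 had 36, 43 and 45 counts in the libraries labelled Il1f5 KO, against 0 counts in each library labelled Il1f5 WT. Both Il1f9 WT and both Il1f9 KO colitis libraries had 0 counts of Il1f5 as well. Why the libraries labelled Il1f5 KO held counts was not tested, so every direction in that line rests on a doubtful label. The Il1f9 colitis libraries held 17510421 to 20564826 counts on genes, of which 2.90 to 3.13% were mitochondrial and 6.31 to 6.86% fell on the 10 most abundant genes. The 2 libraries of a group differed beyond sampling noise (chi-square per gene 18.49 in KO and 26.26 in WT). Defining markers of distal colon were present in every library. On the authors' FPKM scale the enterocyte carbonic anhydrase gene Car1 had 7838 and 7855 in KO, against 3880.3 and 1957 in WT. The homeobox gene Hoxb13, a marker of the hindmost colon, had 7.13 and 26.0 FPKM in KO, against 3.60 and 3.24 FPKM in WT, so KO 2 stood highest.

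IL-36 gamma, the product of Il1f9 (also called Il36g), is a cytokine of the IL-1 family. It is made mainly by epithelial cells and by macrophages at barrier surfaces, is activated by proteases, and signals through a receptor made of Il1rl2 and the shared chain Il1rap. The receptor activates NF-kB and MAP kinase pathways, and in barrier tissue it is known for driving chemokine release, neutrophil recruitment and wound responses, while the antagonist encoded by Il1f5 (Il36rn) blocks it.

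The targeted gene fell in the KO libraries. Il1f9 (ENSMUSG00000044103, chromosome 2, 24186476 to 24193568 in the deposited table, for which no source used here names a genome build) had 9 and 1 counts in KO, against 232 and 90 counts in WT. Scaled to depth, this was 0.543 and 0.0507 CPM in the KO libraries, against 11.9 and 4.53 CPM in the WT libraries, where CPM is the usual count scaled to a common library size, here with edgeR's TMM factors. The groups did not overlap, and KO 1 and WT 1 were the higher library of each group (log2 fold change -4.84 ± 0.80, adjusted p = 0.00359, from edgeR's quasi-likelihood test with Benjamini-Hochberg adjustment over all genes tested, as is each adjusted p here). A fold change is KO over WT with its standard error, here the absolute log2 fold change divided by the square root of the test's F statistic. A gene is said to rise or fall where its adjusted p was under 0.05. Residual counts in KO 1 are gene totals, and which exons they cover is not in the deposited table. Without KO 1, when 1 count in KO 2 carried the comparison, the log2 fold change was -7.17, and without KO 2 it was -3.91.

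Both subunits of the IL-36 receptor were lower in KO. Il1rl2, the specific receptor chain (ENSMUSG00000070942, chromosome 1, 40324610 to 40367562), had 3.14 and 3.40 CPM in the KO libraries, against 4.67 and 7.24 CPM in the WT libraries (log2 fold change -0.87 ± 0.26, adjusted p = 0.0356). Il1rap, the signalling chain that IL-36 shares with IL-1 and IL-33 (ENSMUSG00000022514, chromosome 16, 26581704 to 26730117), had 8.98 and 5.93 CPM in the KO libraries, against 13.6 and 11.1 CPM in the WT libraries (log2 fold change -0.73 ± 0.23, adjusted p = 0.0442). Groups did not overlap for either gene, but both calls depended on single libraries. Il1rl2 lost its call without KO 1, KO 2 or WT 2 (adjusted p 0.118 to 0.294) and Il1rap without KO 2, WT 1 or WT 2 (adjusted p 0.0740 to 0.279). Il1rl2 had a log2 fold change of -0.52 without WT 2 and Il1rap had a log2 fold change of -0.47 without KO 2. Il1f8, which encodes the agonist IL-36 beta, was close to the detection limit and was not called, at 0.482 and 0.203 CPM in KO, against 0.924 and 0.201 CPM in WT. Il1f6, which encodes the agonist IL-36 alpha, was too low to be tested, with 0 and 1 counts in KO, against 11 and 5 counts in WT. Il1f5 and Il1f10, which encode the receptor antagonist and IL-38, had 0 counts in all 4 libraries. A count of 0 allows up to 3 counts in a library of this depth, by counting error alone.

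Across the transcriptome, 3581 of 18299 genes tested were called, or 19.6%. KO was higher for 1754 genes (9.59%) and lower for 1827 (9.98%), and the median log2 fold change over all genes was -0.01. Falls were the larger changes. Among genes that fell the median log2 fold change was -0.93, with 844 past 1, 326 past 2 and 129 past 3 on the log2 scale. Genes that rose had a median of 0.64, with 311 past 1, 67 past 2 and 23 past 3. The KO and WT libraries did not overlap in CPM for 11172 genes, or 61.1%, so non-overlap by itself sets a gene apart little in a design of 2 against 2. Leaving out KO 1 gave 656 genes higher and 970 lower, leaving out KO 2 gave 661 and 833, and leaving out WT 2 gave 508 and 885, while 1758 and 1638 were called without WT 1. Of 185 called genes chosen for description, all 185 had the same sign in the authors' deposited table, and 170 had an adjusted p under 0.05 in it. That table was made from the same libraries.

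The 12 largest falls included neutrophil and macrophage products, the cytokine gene Il1a and Il1f9 itself. Lack of overlap was a condition of this choice and of that of the 12 largest rises. Chil3, a chitinase-like protein secreted by macrophages and neutrophils (ENSMUSG00000040809, chromosome 3, 106147554 to 106167564), had 3.01 and 0.811 CPM in the KO libraries, against 167 and 167 CPM in the WT libraries (log2 fold change -6.49 ± 1.29, adjusted p = 0.0166). Lcn2, the siderophore-binding protein lipocalin-2 (ENSMUSG00000026822, chromosome 2, 32384633 to 32388252), had 16.5 and 5.37 CPM in the KO libraries, against 372 and 321 CPM in the WT libraries (log2 fold change -5.00 ± 0.95, adjusted p = 0.0143). Mmp8, the neutrophil collagenase (ENSMUSG00000005800, chromosome 9, 7558456 to 7568485), had 0.844 and 0.355 CPM in the KO libraries, against 67.4 and 54.8 CPM in the WT libraries (log2 fold change -6.70 ± 1.32, adjusted p = 0.0161). In all these genes KO 1 lay above KO 2, and the WT libraries lay close together. Retnlg, a resistin-like cytokine of myeloid cells, had 7.42 and 1.47 CPM in KO, against 157 and 75.6 CPM in WT (log2 fold change -4.75 ± 1.22, adjusted p = 0.0387). Fpr2, a receptor for formyl peptides, had 0.724 and 0.405 CPM in KO, against 16.7 and 19.2 CPM in WT (log2 fold change -5.00 ± 0.83, adjusted p = 0.00535). Il1a, which encodes the alarmin IL-1 alpha, had 0.844 and 0.304 CPM in KO, against 26.7 and 9.16 CPM in WT (log2 fold change -4.99 ± 1.04, adjusted p = 0.0161). Mmp8 lost its call without KO 1, KO 2 or WT 2 (adjusted p 0.0639 to 0.110), Chil3 without KO 1, KO 2 or WT 2 (adjusted p 0.0709 to 0.109) and Lcn2 without KO 1, KO 2 or WT 2 (adjusted p 0.0532 to 0.0870). Fpr2 lost its call without KO 2 (adjusted p 0.0563), Il1a without KO 1 or KO 2 (adjusted p 0.0809 to 0.115) and Retnlg without KO 1, KO 2, WT 1 or WT 2 (adjusted p 0.0993 to 0.181).

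Several of the largest falls came to the detection limit in KO. Prok2, a chemokine-like secreted peptide (ENSMUSG00000030069, chromosome 6, 99711299 to 99726392), had 1 and 0 counts in KO, against 143 and 93 counts in WT, 218-fold lower (95% interval from counting error 38.7 to 8639.7, adjusted p = 0.00286). Orm2, an acute phase glycoprotein (ENSMUSG00000061540, chromosome 4, 63362449 to 63365878), had 2 and 0 counts in KO, against 159 and 206 counts in WT, 168-fold lower (95% interval from counting error 46.3 to 1396, adjusted p = 0.00465). Such intervals cover counting error only. Marco, a scavenger receptor of macrophages (ENSMUSG00000026390, chromosome 1, 120474538 to 120505024), had 0.301 and 0 CPM in the KO libraries, against 8.22 and 16.9 CPM in the WT libraries (log2 fold change -6.43 ± 0.97, adjusted p = 0.00280). Without KO 1 no count of Marco was left in KO, and the fitted log2 fold change of -10.92 then depends on the prior count and is no bound. These calls all held with any 1 library left out. Orm2 has near-identical copies, and how the authors' counting treated reads shared between copies is stated in no source used here, which holds for the families of Nlrp1, Slfn, Mptx, Ang, Retnl, Fpr and Gsdmc genes as well.

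Nlrp1b and Slfn8 had the smallest standard errors among the 12. Nlrp1b, an inflammasome sensor (ENSMUSG00000070390, chromosome 11, 71153102 to 71230733), had 0.422 and 0.355 CPM in the KO libraries, against 19.6 and 16.0 CPM in the WT libraries (log2 fold change -5.50 ± 0.27, adjusted p = 4.05e-06). Slfn8, of the Schlafen family (ENSMUSG00000035208, chromosome 11, 83002158 to 83020810), had 0.362 and 0.405 CPM in the KO libraries, against 10.4 and 8.65 CPM in the WT libraries (log2 fold change -4.61 ± 0.44, adjusted p = 0.000124). Both genes lie on chromosome 11, and neighbours of theirs, named after their values were seen, were low as well. Nlrp1a, next to Nlrp1b, had 0 and 0 counts in KO, against 23 and 20 counts in WT (adjusted p = 0.00181), and Slfn1, in the Schlafen cluster, had 3.01 and 1.27 CPM in KO, against 19.2 and 13.9 CPM in WT (log2 fold change -2.97 ± 0.41, adjusted p = 0.00142). Nlrp1b and Slfn8 were also low in the libraries labelled Il1f5 KO. In that line Nlrp1b had 1.52, 1.10 and 1.52 CPM in libraries labelled Il1f5 KO, against 15.1, 14.7 and 17.6 CPM in libraries labelled Il1f5 WT. Slfn8 had 0.813, 0.249 and 1.01 CPM in libraries labelled Il1f5 KO, against 15.5, 11.8 and 13.0 CPM in libraries labelled Il1f5 WT. Both genes thus stood low in KO-labelled libraries of either line. Every mouse is labelled C57BL/6, and whether KO and WT libraries share 1 strain background at these loci was not tested.

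**Figure D1:**
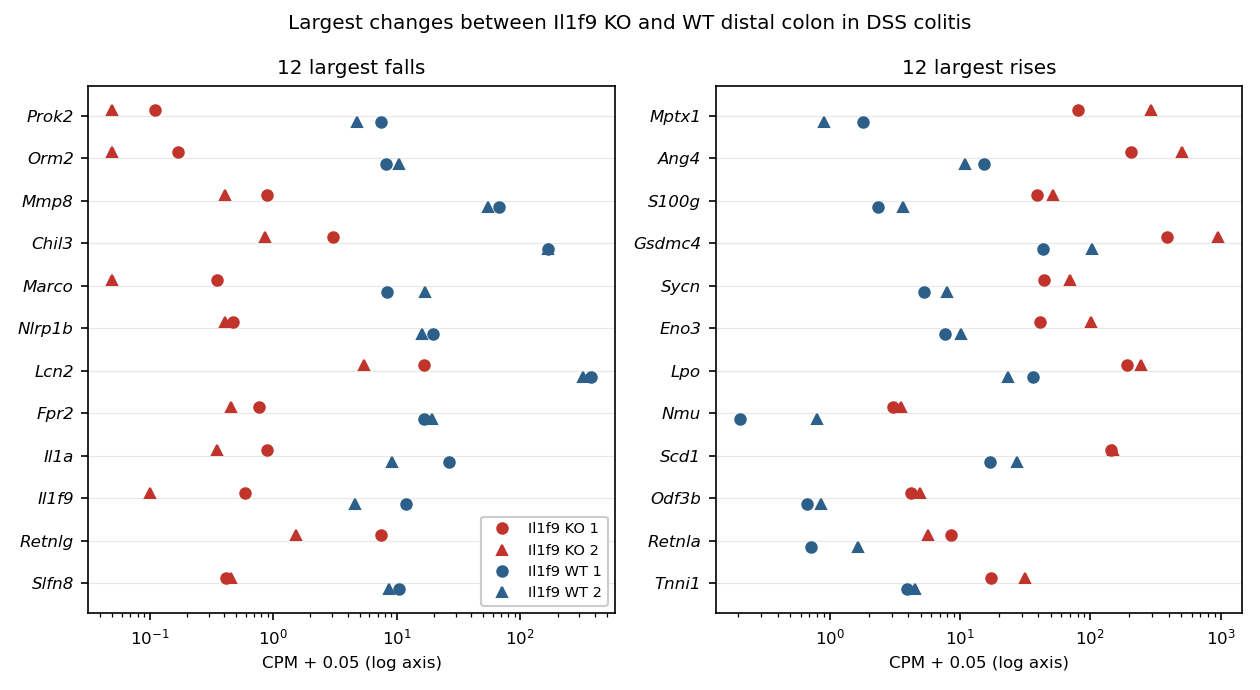
CPM plus 0.05 on a log axis for the 12 genes with the largest fall (left) and the 12 with the largest rise (right) in Il1f9 KO against WT colitis, with 1 point per library (red KO, blue WT, circles replicate 1, triangles replicate 2). KO and WT points do not overlap for any gene, which was a condition of the choice, and Chil3 stands at 3.01 and 0.811 CPM in KO, against 167 CPM in both WT libraries.

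Several proteins that gut epithelium is known to make were among the 12 largest rises. Mptx1, a mucosal pentraxin (ENSMUSG00000026531, chromosome 1, 174330518 to 174332873), had 79.8 and 292 CPM in the KO libraries, against 1.75 and 0.855 CPM in the WT libraries (log2 fold change 7.16 ± 1.32, adjusted p = 0.0132). Ang4, an antimicrobial angiogenin (ENSMUSG00000060615, chromosome 14, 51763878 to 51773590), had 207 and 509 CPM in the KO libraries, against 15.2 and 10.9 CPM in the WT libraries (log2 fold change 4.78 ± 0.65, adjusted p = 0.00404). Gsdmc4, of the pore-forming gasdermin C family (ENSMUSG00000055748, chromosome 15, 63891264 to 63912297), had 388 and 957 CPM in the KO libraries, against 43.7 and 103 CPM in the WT libraries (log2 fold change 3.19 ± 0.79, adjusted p = 0.0339). In all of these KO 2 was the highest library. S100g, the calcium-binding calbindin-D9k, had 39.1 and 51.7 CPM in KO, against 2.31 and 3.62 CPM in WT (log2 fold change 3.93 ± 0.85, adjusted p = 0.0213). Sycn, the secretory granule protein syncollin, had 43.8 and 69.5 CPM in KO, against 5.29 and 7.85 CPM in WT (log2 fold change 3.11 ± 0.46, adjusted p = 0.00415). Lpo, the antimicrobial lactoperoxidase (ENSMUSG00000009356, chromosome 11, 87806428 to 87828289), had 191 and 244 CPM in KO, against 36.6 and 23.3 CPM in WT (log2 fold change 2.86 ± 0.28, adjusted p = 0.000515). The call of Sycn and that of Lpo held with any 1 library left out. Mptx1 lost its call without WT 1 or WT 2 (adjusted p 0.0627 to 0.115), Ang4 without WT 2 (adjusted p 0.0549) and Gsdmc4 without KO 1, KO 2, WT 1 or WT 2 (adjusted p 0.0524 to 0.1401). S100g lost its call without KO 1, KO 2, WT 1 or WT 2 (adjusted p 0.0637 to 0.123).

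Among the other large rises, Scd1, the desaturase that makes oleate, had 144 and 151 CPM in KO, against 17.1 and 27.3 CPM in WT (log2 fold change 2.73 ± 0.72, adjusted p = 0.0418). Retnla, a resistin-like molecule made in type 2 responses, had 8.56 and 5.62 CPM in KO, against 0.668 and 1.61 CPM in WT (log2 fold change 2.63 ± 0.45, adjusted p = 0.00289). Nmu, which encodes the neuropeptide neuromedin U, had 3.01 and 3.497 CPM in KO, against 0.154 and 0.755 CPM in WT (log2 fold change 2.82 ± 0.67, adjusted p = 0.0155). Retnla was called with any 1 library left out. Eno3, the muscle form of enolase, had 41.5 and 101 CPM in KO, against 7.70 and 10.2 CPM in WT (log2 fold change 3.00 ± 0.60, adjusted p = 0.0152). Odf3b, a homologue of a sperm tail protein, had 4.16 and 4.92 CPM in KO, against 0.616 and 0.805 CPM in WT (log2 fold change 2.66 ± 0.39, adjusted p = 0.00124). Tnni1, the troponin I of slow skeletal muscle, had 17.4 and 31.5 CPM in KO, against 3.90 and 4.48 CPM in WT (log2 fold change 2.54 ± 0.51, adjusted p = 0.0110). Scd1 lost its call without KO 1, KO 2, WT 1 or WT 2 (adjusted p 0.123 to 0.162), Nmu without KO 2 or WT 1 (adjusted p 0.0642 to 0.0707) and Eno3 without KO 2, WT 1 or WT 2 (adjusted p 0.0520 to 0.105). Tnni1 lost its call without KO 2, WT 1 or WT 2 (adjusted p 0.0531 to 0.0919). Nmu had a log2 fold change of 4.34 without WT 2.

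**Figure D2:**
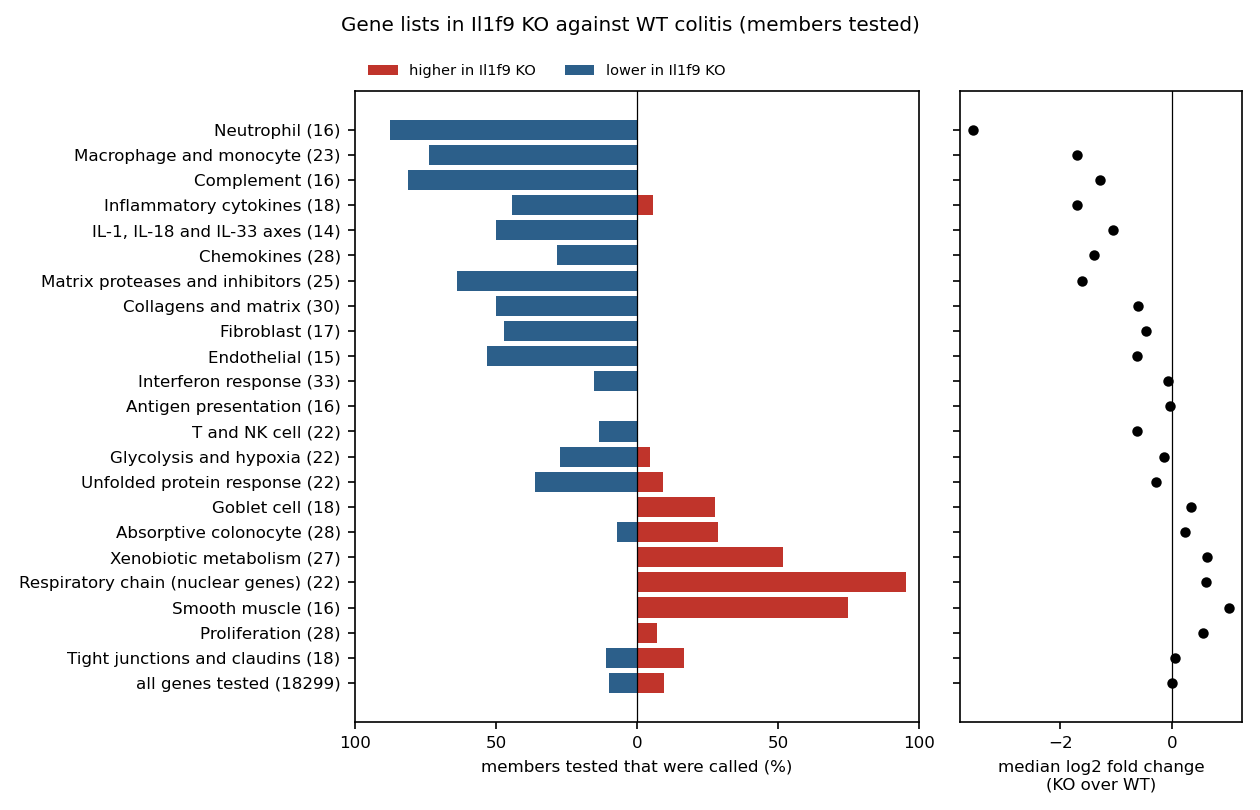
Share of the tested members of 22 gene lists, and of all 18299 genes tested, that were called lower (blue, to the left) or higher (red, to the right) in Il1f9 KO, with the number tested in brackets, and the median log2 fold change of each list. Neutrophil genes have 14 of 16 lower and a median of -3.56, nuclear genes of the respiratory chain have 21 of 22 higher and a median of 0.60.

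Neutrophil genes were lower in KO. The list is 1 of 51 that were read here. Of the others, 12 had a called share of 5.88 to 16.7%, below the 19.6% of all genes, and 7 had no call. Of 16 tested 14 fell, against 9.98% of all genes, and the median log2 fold change was -3.56. Summed over the 20 markers, the level was 296 and 214 CPM in KO, against 1695 and 958 CPM in WT. Most of the KO sums came from Ly6g, which was not called. In bulk tissue fewer cells of a type and less RNA per cell cannot be told apart. Fpr1, the formyl peptide receptor of neutrophils (ENSMUSG00000045551, chromosome 17, 17876471 to 17883940), had 0.844 and 0.557 CPM in the KO libraries, against 13.7 and 16.5 CPM in the WT libraries (log2 fold change -4.43 ± 0.53, adjusted p = 0.000556). Csf3r, the receptor for granulocyte colony-stimulating factor (ENSMUSG00000028859, chromosome 4, 126024550 to 126044440), had 8.26 and 3.14 CPM in the KO libraries, against 44.1 and 41.4 CPM in the WT libraries (log2 fold change -2.92 ± 0.39, adjusted p = 0.00176). Both calls held with any 1 library left out. S100a8 and S100a9, the subunits of calprotectin, were named after their values were seen. S100a8 had 17.4 and 8.51 CPM in KO, against 407 and 214 CPM in WT (log2 fold change -4.59 ± 0.91, adjusted p = 0.0164). S100a9 had 46.1 and 15.2 CPM in KO, against 534 and 258 CPM in WT (log2 fold change -3.70 ± 0.95, adjusted p = 0.0382).

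The members that were not called were Ngp and Ly6g, both likewise named after their values were seen. Ngp, a granule protein of developing neutrophils, had 1 and 0 counts in KO, against 1327 and 1043 counts in WT, 2188-fold lower (95% interval from counting error 392 to 86438, adjusted p = 0.0559), but was not called. Ly6g, the surface marker of mouse neutrophils, had 185 and 174 CPM in KO, against 182 and 72.8 CPM in WT, with overlapping groups (log2 fold change 0.49 ± 0.47, adjusted p = 0.513). Mpo, Elane, Stfa3 and Cxcr1 were too low to be tested. Left-out libraries changed the count, and the number of neutrophil genes that fell was 8 without KO 1, 3 without KO 2 and 6 without WT 2. S100a8 lost its call without KO 1, KO 2 or WT 2 (adjusted p 0.0513 to 0.107) and S100a9 without KO 1, KO 2, WT 1 or WT 2 (adjusted p 0.0911 to 0.176). In the Il1f5 line the summed level was 364 to 908 CPM in the 3 libraries labelled Il1f5 KO and 236 to 518 CPM in the 3 libraries labelled Il1f5 WT. The 2 WT libraries of the Il1f9 line were therefore the highest of all 10 colitis libraries for this list, and the KO libraries were in the range of, or just below, the libraries labelled Il1f5 WT. Ly6g alone supplied 185 and 174 CPM of the KO sums and 182 and 72.8 CPM of the WT sums, so the place of the KO libraries rests mostly on this gene.

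Macrophage and monocyte genes were lower in KO too. Of 23 tested 17 fell, with a median log2 fold change of -1.71, and 14 to 17 fell when any 1 library was left out. Their summed level was 1157 and 1097 CPM in KO, against 2274 and 2391 CPM in WT. Cd68, a lysosomal protein of macrophages (ENSMUSG00000018774, chromosome 11, 69664213 to 69666153), had 6.99 and 5.93 CPM in the KO libraries, against 23.6 and 25.9 CPM in the WT libraries (log2 fold change -1.94 ± 0.16, adjusted p = 8.54e-05). Arg1, the arginase of activated macrophages (ENSMUSG00000019987, chromosome 10, 24915221 to 24927484), had 3.08 and 2.08 CPM in the KO libraries, against 21.1 and 19.0 CPM in the WT libraries (log2 fold change -2.97 ± 0.25, adjusted p = 8.54e-05). Csf1r, the receptor for the growth factor of macrophages, had 21.1 and 16.4 CPM in KO, against 67.8 and 98.8 CPM in WT (log2 fold change -2.15 ± 0.18, adjusted p = 8.54e-05). In each gene both KO libraries lay well below both WT libraries. Lyz2, the lysozyme of myeloid cells, had 114 and 102 CPM in KO, against 447 and 608 CPM in WT (log2 fold change -2.29 ± 0.19, adjusted p = 8.54e-05), and Ccr2, the chemokine receptor of inflammatory monocytes, had 12.8 and 7.80 CPM in KO, against 44.8 and 60.2 CPM in WT (log2 fold change -2.35 ± 0.24, adjusted p = 0.000183), both named after their values were seen. The 6 that were not called were Mertk, Mrc1, Cx3cr1, Folr2, Timd4 and Plac8, of which Mertk, Mrc1, Cx3cr1, Folr2 and Timd4 are known from resident macrophages. In the Il1f5 line the summed level was 1173 to 1572 CPM in the 3 libraries labelled Il1f5 KO and 1526 to 1658 CPM in the 3 libraries labelled Il1f5 WT, between the Il1f9 WT and KO libraries.

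Further myeloid genes with small p-values were chosen after their values were seen. Spi1, which encodes PU.1, the transcription factor of myeloid cells (ENSMUSG00000002111, chromosome 2, 91082390 to 91115756), had 9.71 and 8.11 CPM in the KO libraries, against 43.6 and 39.6 CPM in the WT libraries (log2 fold change -2.23 ± 0.19, adjusted p = 8.54e-05). Cybb, the catalytic subunit of the phagocyte oxidase, had 8.68 and 6.89 CPM in KO, against 47.1 and 59.2 CPM in WT (log2 fold change -2.77 ± 0.21, adjusted p = 5.89e-05). Itgb2, the shared chain of leukocyte integrins, had 13.8 and 10.0 CPM in KO, against 63.0 and 64.0 CPM in WT (log2 fold change -2.42 ± 0.21, adjusted p = 0.000110). All 3 were low in both KO libraries. Tyrobp, a signalling adaptor of myeloid receptors, fell by 2.07 and Csf2rb2, a receptor chain for interleukin-3, by 2.83 on the log2 scale. These 5 calls held with any 1 library left out.

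Complement genes were lower in KO as well. Of 16 tested 13 fell, with a median log2 fold change of -1.29, and 12 fell with any 1 library left out. C1qb, a chain of the recognition complex C1q made by macrophages (ENSMUSG00000036905, chromosome 4, 136880129 to 136886187), had 31.1 and 27.4 CPM in the KO libraries, against 80.3 and 96.0 CPM in the WT libraries (log2 fold change -1.59 ± 0.15, adjusted p = 0.000110). C5ar1, the receptor for the anaphylatoxin C5a, had 6.57 and 3.90 CPM in KO, against 31.0 and 28.3 CPM in WT (log2 fold change -2.51 ± 0.26, adjusted p = 0.000183). C3, the central component of the cascade (ENSMUSG00000024164, chromosome 17, 57203970 to 57228136), named after its values were seen, had 205 and 139.6 CPM in the KO libraries, against 787 and 969 CPM in the WT libraries (log2 fold change -2.35 ± 0.29, adjusted p = 0.00117). Those that were not called were C2 and the membrane regulators Cd55 and Cd59a. The summed level was 765 and 581 CPM in KO, against 1815 and 2170.03 CPM in WT. C1qa, C1qb and C1qc stand in the macrophage list as well.

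Promoter sequence was looked at for a motif of PU.1, because the gene of this factor was among those that fell. The motif was chosen after the values were seen. Promoter windows of 300 bases, 250 before and 50 after the annotated start, were taken from RefSeq (GRCm38.p6) and matched to genes by symbol. The PU.1 core, GAGGAAGT on either strand, stood in 6.224% of 1687 windows of genes that fell, in 2.632% of 1596 windows of genes that rose, and in 3.154% of 15854 windows of all genes tested. These are descriptions of letters, not of binding. Shown are C1qc, of the C1q complex, whose window (chr4:136892865-136893164, minus strand) has a match on the opposite strand 195 bases before the start, and Il18rap, the accessory chain of the interleukin-18 receptor, whose window (chr1:40515112-40515411, plus strand) has a match 79 bases before the start at the end of a purine-rich run. Capitals mark the match, and both sequences run 5′ to 3′ along the gene.
C1qc promoter: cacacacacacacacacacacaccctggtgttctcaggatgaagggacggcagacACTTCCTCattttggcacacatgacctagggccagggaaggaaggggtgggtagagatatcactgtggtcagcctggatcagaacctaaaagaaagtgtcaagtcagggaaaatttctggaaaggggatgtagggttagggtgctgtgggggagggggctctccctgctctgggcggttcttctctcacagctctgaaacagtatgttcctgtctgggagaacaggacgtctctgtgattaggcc
Il18rap promoter: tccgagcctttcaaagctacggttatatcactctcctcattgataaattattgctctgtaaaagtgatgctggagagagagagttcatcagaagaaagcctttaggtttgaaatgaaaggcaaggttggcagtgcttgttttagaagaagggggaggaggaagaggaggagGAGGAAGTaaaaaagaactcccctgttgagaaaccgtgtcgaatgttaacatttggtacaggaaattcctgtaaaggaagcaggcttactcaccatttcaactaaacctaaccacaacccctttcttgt

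C1qc had 34.4 and 31.7 CPM in KO, against 67.8 and 86.7 CPM in WT (log2 fold change -1.22 ± 0.13, adjusted p = 0.000241). Il18rap had 2.17 and 1.37 CPM in KO, against 7.55 and 9.56 CPM in WT (log2 fold change -2.28 ± 0.30, adjusted p = 0.000738). For both genes the groups did not overlap.

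**Figure D3:**
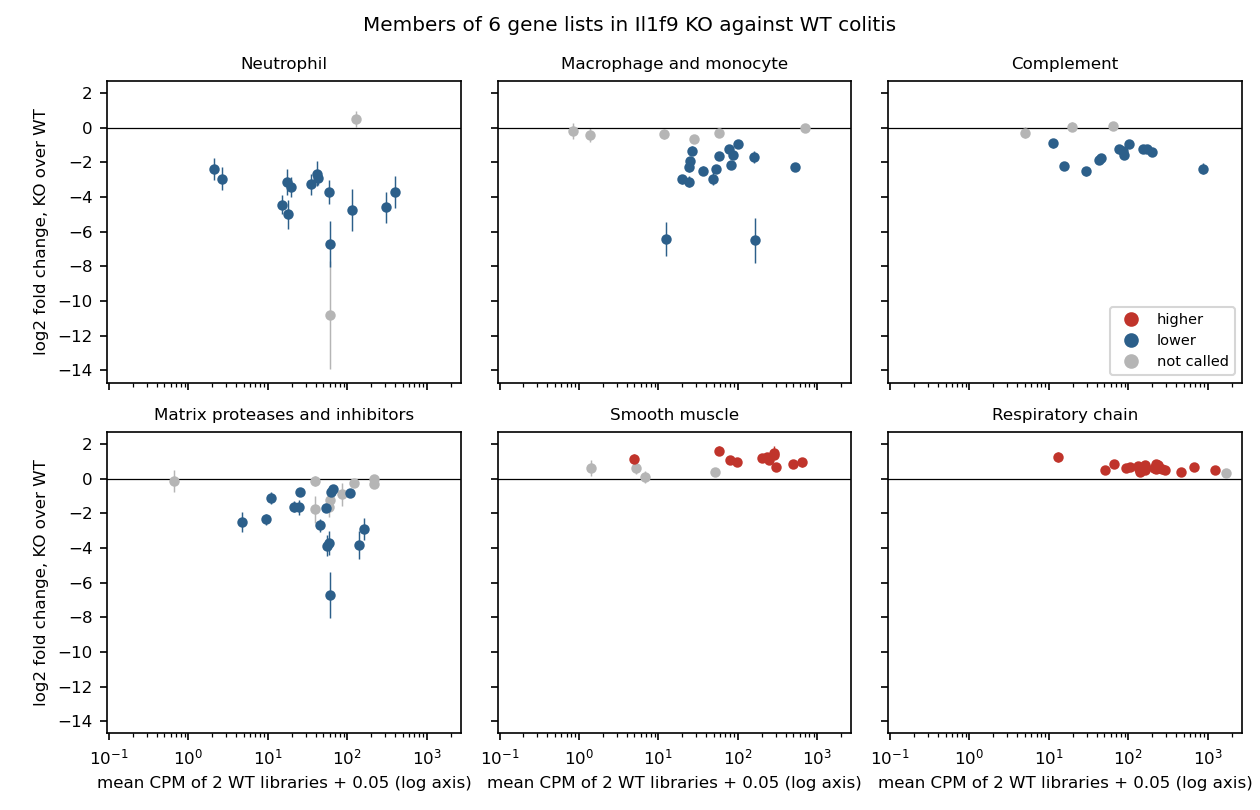
Log2 fold change of Il1f9 KO over WT with its standard error for each tested member of 6 gene lists, against the mean CPM of the 2 WT libraries plus 0.05 on a log axis (red higher, blue lower, grey not called). Neutrophil, macrophage, complement and protease genes lie below 0 with few exceptions, and smooth muscle and respiratory chain genes lie above 0, with medians of 1.01 and 0.60.

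Of the inflammatory cytokine list, which also holds the enzyme gene Nos2, 8 of 18 tested were lower in KO and 1 was higher. The median log2 fold change of the list was -1.70. Nos2, the inducible nitric oxide synthase (ENSMUSG00000020826, chromosome 11, 78920787 to 78960254), had 23.6 and 34.6 CPM in the KO libraries, against 357 and 177 CPM in the WT libraries (log2 fold change -3.20 ± 0.31, adjusted p = 0.000556). Tnf (ENSMUSG00000024401, chromosome 17, 35199381 to 35202007) had 3.98 and 5.37 CPM in the KO libraries, against 21.6 and 16.8 CPM in the WT libraries (log2 fold change -2.03 ± 0.26, adjusted p = 0.000679). For both genes WT 1 was the highest library, and the calls held with any 1 library left out. Il27, which encodes a subunit of interleukin-27, was named after its values were seen and had 1 and 1 counts in KO, against 42 and 28 counts in WT, 32.3-fold lower (95% interval from counting error 8.62 to 272, adjusted p = 0.00279). The gene that rose was Tslp, an epithelial cytokine that promotes type 2 immunity, at a low level, with 0.965 and 0.405 CPM in KO, against 0.0514 and 0.151 CPM in WT (log2 fold change 2.65 ± 0.73, adjusted p = 0.0267). Tslp lost its call without KO 1, WT 1 or WT 2 (adjusted p 0.0769 to 0.198). Il6 had 8.62 and 2.23 CPM in KO, against 12.5 and 12.8 CPM in WT and missed the threshold (log2 fold change -1.23 ± 1.06, adjusted p = 0.467).

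In the axes of interleukin-1, interleukin-18 and interleukin-33, 7 of 14 genes fell. Il18rap, given above, had the smallest p of them. Il1r2, a decoy receptor for interleukin-1 carried by neutrophils, had 5.13 and 2.28 CPM in KO, against 37.7 and 32.5 CPM in WT (log2 fold change -3.26 ± 0.61, adjusted p = 0.0102). Il1b (ENSMUSG00000027398, chromosome 2, 129364570 to 129371139), named after its values were seen, had 24.9 and 10.8 CPM in the KO libraries, against 197 and 109 CPM in the WT libraries (log2 fold change -3.11 ± 0.75, adjusted p = 0.0308). Il1r2 lost its call without KO 2 (adjusted p 0.0705) and Il1b without KO 1, KO 2, WT 1 or WT 2 (adjusted p 0.0779 to 0.157). The other members that fell were Il1a, Il1r1, Nlrp3 and Il1rn, and the number that fell was 4 without KO 1, 1 without KO 2, 4 without WT 1 and 4 without WT 2. Casp1, Gsdmd, Il18, Il18bp and Il33, and the receptor genes Il18r1 and Il1rl1, were not called.

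In the axis of interleukin-17, interleukin-22 and interleukin-23, 4 of 17 genes fell (23.5%, beside 9.98% falling and 19.6% called either way among all genes). Il17a, the main cytokine of type 17 lymphocytes (ENSMUSG00000025929, chromosome 1, 20730905 to 20734496), had 1 and 0 counts in KO, against 50 and 71 counts in WT, 112-fold lower (95% interval from counting error 19.7 to 4447, adjusted p = 0.00276). Il10ra, the ligand-binding chain of the interleukin-10 receptor, had 9.71 and 8.36 CPM in KO, against 23.0 and 30.3 CPM in WT (log2 fold change -1.56 ± 0.20, adjusted p = 0.000652). Il17ra, the receptor for interleukin-17, had 35.4 and 28.7 CPM in KO, against 46.3 and 44.0 CPM in WT (log2 fold change -0.49 ± 0.13, adjusted p = 0.0239). Ahr, the aryl hydrocarbon receptor, had 16.7 and 12.01 CPM in KO, against 20.3 and 20.5 CPM in WT (log2 fold change -0.51 ± 0.15, adjusted p = 0.0379). Il17a and Il10ra were called with any 1 library left out. Il17ra lost its call without KO 2, WT 1 or WT 2 (adjusted p 0.0656 to 0.169) and Ahr without KO 2, WT 1 or WT 2 (adjusted p 0.0789 to 0.265). Ahr had a log2 fold change of -0.30 without KO 2.

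Chemokine genes fell for 8 of 28 tested (28.6%, beside 9.98% falling and 19.6% called in either direction among all genes). Their median log2 fold change was -1.41. Cxcl12, a stromal chemokine that retains leukocytes (ENSMUSG00000061353, chromosome 6, 117168535 to 117181367), had 62.0 and 58.3 CPM in the KO libraries, against 129.99 and 159 CPM in the WT libraries (log2 fold change -1.27 ± 0.12, adjusted p = 0.000110). Ccl9, a chemokine for myeloid cells (ENSMUSG00000019122, chromosome 11, 83572919 to 83578636), had 29.7 and 26.2 CPM in the KO libraries, against 61.3 and 78.3 CPM in the WT libraries (log2 fold change -1.32 ± 0.15, adjusted p = 0.000351). Both calls held with any 1 library left out. The neutrophil chemokines, named after their values were seen, had larger errors. Cxcl2 had 8.92 and 8.82 CPM in KO, against 146 and 57.8 CPM in WT (log2 fold change -3.52 ± 0.96, adjusted p = 0.0459). Cxcl5 had 54.6 and 30.2 CPM in KO, against 137 and 145 CPM in WT (log2 fold change -1.74 ± 0.44, adjusted p = 0.0331). Cxcl1 had 8.98 and 5.78 CPM in KO, against 28.1 and 37.1 CPM in WT and missed the threshold (log2 fold change -2.15 ± 0.94, adjusted p = 0.161). Cxcl2 lost its call without KO 1, KO 2, WT 1 or WT 2 (adjusted p 0.0906 to 0.194) and Cxcl5 without KO 1, KO 2, WT 1 or WT 2 (adjusted p 0.0538 to 0.156). The other chemokine genes that fell were Cxcl13, Ccl11, Cxcl16 and Cxcl3, and 5 fell whichever library was left out.

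Antimicrobial and acute phase genes moved in both directions, with 5 of 28 higher and 9 lower. Duox2, the epithelial oxidase that releases hydrogen peroxide (ENSMUSG00000068452, chromosome 2, 122279247 to 122298165), had 375 and 366 CPM in the KO libraries, against 815 and 792 CPM in the WT libraries (log2 fold change -1.12 ± 0.13, adjusted p = 0.000327). Lpo, which uses hydrogen peroxide, rose as given above, as did Ang4, Retnla, Zg16 and Retnlb. Dmbt1, a mucosal scavenger protein named after its values were seen, had 4743 and 3729 CPM in KO, against 7833 and 8669 CPM in WT (log2 fold change -0.96 ± 0.15, adjusted p = 0.00207). Saa3, an acute phase amyloid (ENSMUSG00000040026, chromosome 7, 46711998 to 46715700), had 174 and 36.5 CPM in the KO libraries, against 1151 and 1177 CPM in the WT libraries (log2 fold change -3.47 ± 0.92, adjusted p = 0.0420). Reg3g, a C-type lectin against Gram-positive bacteria, had 856 and 279 CPM in KO, against 3104 and 1748 CPM in WT (log2 fold change -2.10 ± 0.56, adjusted p = 0.0375). Its relative Reg3b had 4956 and 592 CPM in KO, against 11284 and 7199.97 CPM in WT and missed the threshold (log2 fold change -1.74 ± 0.85, adjusted p = 0.206). For all 3 of these genes KO 2 was the lowest library, and they were named after their values were seen. Saa3 lost its call without KO 2, WT 1 or WT 2 (adjusted p 0.0915 to 0.141) and Reg3g without KO 2, WT 1 or WT 2 (adjusted p 0.0669 to 0.144). Retnlb, a goblet cell product that acts on bacteria, had 600.1 and 523 CPM in KO, against 265 and 214 CPM in WT (log2 fold change 1.23 ± 0.25, adjusted p = 0.00952). Retnlb lost its call without KO 1 or WT 2 (adjusted p 0.0551 to 0.116). Left-out libraries changed both counts. The number that rose was 3 without WT 2, and the number that fell was 3 without KO 2, 5 without WT 1 and 4 without WT 2.

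Motifs of the pathways that IL-36 and interferon are known to use were counted in the same promoter windows. The NF-kB motif, searched on either strand, stood in 12.27% of windows of genes that fell, 9.774% of those of genes that rose and 10.36% of all windows. The core of the interferon-stimulated response element, searched on either strand, stood in 4.386% of windows of genes that fell, 2.005% of those of genes that rose and 3.248% of all windows. Motifs were counted separately, and overlaps between them were not removed. The windows of Cxcl2 (chr5:90903649-90903948, plus strand) and Saa3 (chr7:46715627-46715926, minus strand) are shown as examples of genes that fell, with 2 overlapping NF-kB matches, of which the first begins 97 bases before the start of Cxcl2, and the response element match 125 bases before the start of Saa3 in capitals.
Cxcl2 promoter: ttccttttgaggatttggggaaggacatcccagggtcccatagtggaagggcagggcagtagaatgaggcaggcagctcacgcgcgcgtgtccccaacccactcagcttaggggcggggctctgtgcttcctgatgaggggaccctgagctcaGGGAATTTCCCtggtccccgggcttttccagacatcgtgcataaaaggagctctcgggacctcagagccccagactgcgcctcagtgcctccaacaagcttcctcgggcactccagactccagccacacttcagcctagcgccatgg
Saa3 promoter: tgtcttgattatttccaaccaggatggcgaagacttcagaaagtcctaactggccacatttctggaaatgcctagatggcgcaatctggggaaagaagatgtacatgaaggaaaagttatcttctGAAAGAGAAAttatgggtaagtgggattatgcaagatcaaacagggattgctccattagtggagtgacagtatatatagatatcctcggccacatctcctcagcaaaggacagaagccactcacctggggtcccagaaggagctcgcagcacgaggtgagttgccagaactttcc

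Interferon response genes fell for 5 of 33 (15.2%, beside 9.98% falling and 19.6% called in either direction among all genes). Their median log2 fold change was -0.079. All 5 encode guanylate-binding proteins, GTPases that attack intracellular pathogens. Gbp5 (ENSMUSG00000105504, chromosome 3, 142493978 to 142522344) had 14.8 and 7.04 CPM in the KO libraries, against 78.3 and 51.7 CPM in the WT libraries (log2 fold change -2.58 ± 0.40, adjusted p = 0.00472). Gbp4 had 13.5 and 9.32 CPM in KO, against 72.9 and 45.8 CPM in WT (log2 fold change -2.38 ± 0.41, adjusted p = 0.00716). Gbp2 had 50.4 and 42.2 CPM in KO, against 199 and 94.5 CPM in WT (log2 fold change -1.67 ± 0.46, adjusted p = 0.0422). WT 1 was the highest library for these genes. Gbp6 (-2.04 ± 0.45, adjusted p = 0.0141) and Gbp7 (-1.08 ± 0.31, adjusted p = 0.0430) fell too, with the log2 fold change in brackets. Gbp4 lost its call without KO 2 (adjusted p 0.0598), Gbp2 without KO 1, KO 2 or WT 1 (adjusted p 0.147 to 0.188) and Gbp6 without KO 1, KO 2 or WT 1 (adjusted p 0.0576 to 0.0945). Gbp7 lost its call without KO 1, KO 2, WT 1 or WT 2 (adjusted p 0.0948 to 0.178). Gbp2 had a log2 fold change of -1.03 without WT 1. For antigen presentation genes edgeR called 0 of 16, with 0 higher and 0 lower at an unadjusted p under 0.05, and DESeq2 called 0 higher and 0 lower. Nlrc5, the regulator of MHC class I genes, had 16.9 and 21.4 CPM in KO, against 42.1 and 44.3 CPM in WT, and the class I gene H2-K1 had 2231 and 2204 CPM in KO, against 1911 and 1696 CPM in WT.

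Of 22 T and NK cell genes 3 fell (13.6%, beside 9.98% falling and 19.6% called in either direction among all genes). The 3 were Il2ra, Ctla4 and Icos, which mark activated and regulatory T cells. Il2ra had 0.724 and 0.811 CPM in KO, against 3.39 and 4.93 CPM in WT (log2 fold change -2.43 ± 0.43, adjusted p = 0.00343). Ctla4 had 1.87 and 1.82 CPM in KO, against 3.44 and 6.94 CPM in WT (log2 fold change -1.49 ± 0.37, adjusted p = 0.0162), and Icos had 1.81 and 1.42 CPM in KO, against 2.67 and 5.99 CPM in WT (log2 fold change -1.43 ± 0.46, adjusted p = 0.0482). Ctla4 lost its call without KO 1, KO 2 or WT 2 (adjusted p 0.0830 to 0.169) and Icos without KO 1, KO 2 or WT 2 (adjusted p 0.132 to 0.396). Ctla4 had a log2 fold change of -0.90 without WT 2 and Icos had a log2 fold change of -0.74 without WT 2. Without WT 1, 5 of these genes fell, Cd4 and Foxp3 among them. Of 18 B and plasma cell genes 4 were called (22.2%, beside 19.6% of all genes). Of these 3 rose, all known from plasma cells, and the summed level of the list was 5697 and 6244 CPM in KO, against 2225 and 3622 CPM in WT. Igha, the constant region of immunoglobulin A (ENSMUSG00000095079, chromosome 12, 113254830 to 113260236), had 3374 and 3425 CPM in the KO libraries, against 989 and 1870.2 CPM in the WT libraries (log2 fold change 1.25 ± 0.30, adjusted p = 0.0180). Jchain, which joins immunoglobulin A dimers, had 667 and 762 CPM in KO, against 131 and 281 CPM in WT (log2 fold change 1.79 ± 0.40, adjusted p = 0.0185). Mzb1, a chaperone of antibody secretion, had 14.5 and 15.5 CPM in KO, against 4.31 and 8.30 CPM in WT (log2 fold change 1.25 ± 0.33, adjusted p = 0.0236). The KO libraries lay close together here, and WT 1 was the lowest library. Igha lost its call without KO 1, KO 2 or WT 1 (adjusted p 0.0562 to 0.0770), Jchain without KO 1 or KO 2 (adjusted p 0.0630 to 0.0870) and Mzb1 without KO 1, KO 2 or WT 1 (adjusted p 0.0777 to 0.109). Xbp1, a transcription factor of plasma cells and secretory epithelium, was the 1 member that fell, with 196 and 219.9 CPM in KO, against 321 and 323 CPM in WT (log2 fold change -0.63 ± 0.11, adjusted p = 0.00331).

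Of 11 dendritic cell genes Itgax, Ccr7 and Flt3 fell (27.3%, beside 9.98% falling and 19.6% called in either direction among all genes). Itgax, the integrin chain CD11c, had 5.06 and 4.56 CPM in KO, against 10.1 and 12.8 CPM in WT (log2 fold change -1.25 ± 0.28, adjusted p = 0.0116). Ccr7, which guides cells to lymph nodes, fell by 1.06 and Flt3, a receptor of dendritic cell precursors, by 1.16 on the log2 scale. Itgax lost its call without KO 1, KO 2 or WT 2 (adjusted p 0.0544 to 0.0770), Ccr7 without KO 1, KO 2 or WT 2 (adjusted p 0.0973 to 0.243) and Flt3 without KO 1, KO 2, WT 1 or WT 2 (adjusted p 0.0638 to 0.149). Ccr7 had a log2 fold change of -0.64 without WT 2. Among 7 mast cell genes 1 was called (14.3%, beside 19.6% of all genes). Cma1, a mast cell chymase, rose, with 1.99 and 2.53 CPM in KO, against 0.668 and 0.402 CPM in WT (log2 fold change 2.07 ± 0.57, adjusted p = 0.0249). Cma1 lost its call without KO 1, KO 2 or WT 2 (adjusted p 0.0621 to 0.165). Mcpt1, a mucosal mast cell protease, had 6.09 and 3.85 CPM in KO, against 1.28 and 1.96 CPM in WT and was not called. For eosinophil genes edgeR called 0 of 4, with 0 higher and 2 lower at an unadjusted p under 0.05, and DESeq2 called 0 higher and 1 lower. Ear2, a ribonuclease of eosinophils, had 0.422 and 0.152 CPM in KO, against 1.59 and 1.01 CPM in WT, and Il5ra, the receptor for interleukin-5, had 3.56 and 4.36 CPM in KO, against 11.97 and 7.09 CPM in WT.

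Genes of the extracellular matrix and of the enzymes that remodel it were lower in KO. Of 30 collagen and matrix genes 15 fell, with a median log2 fold change of -0.62, and of 25 matrix proteases and inhibitors 16 fell, with a median of -1.61. Vcan, the proteoglycan versican (ENSMUSG00000021614, chromosome 13, 89655312 to 89742509), had 20.0 and 17.4 CPM in the KO libraries, against 48.0 and 67.6 CPM in the WT libraries (log2 fold change -1.63 ± 0.21, adjusted p = 0.000767). Bgn, the proteoglycan biglycan (ENSMUSG00000031375, chromosome X, 73483602 to 73495933), had 110.2 and 85.4 CPM in the KO libraries, against 168 and 221 CPM in the WT libraries (log2 fold change -0.99 ± 0.15, adjusted p = 0.00153). Col3a1, of interstitial type III collagen, was named after its values were seen and had 787 and 548 CPM in KO, against 1224 and 1799 CPM in WT (log2 fold change -1.18 ± 0.20, adjusted p = 0.00267). KO 2 was the lowest and WT 2 the highest library for these genes. Lox, the enzyme that crosslinks collagen, had 17.1 and 9.07 CPM in KO, against 53.2 and 67.9 CPM in WT (log2 fold change -2.22 ± 0.36, adjusted p = 0.00490), and Col4a1, of basement membranes, had 262 and 183 CPM in KO, against 458 and 642 CPM in WT (log2 fold change -1.31 ± 0.24, adjusted p = 0.00528), both named after their values were seen. The number of matrix genes that fell was 7 without KO 2 and 8 without WT 2.

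Among proteases, Mmp7, an epithelial metalloproteinase (ENSMUSG00000018623, chromosome 9, 7692090 to 7699585), had 1.93 and 1.77 CPM in the KO libraries, against 12.3 and 6.49 CPM in the WT libraries (log2 fold change -2.34 ± 0.32, adjusted p = 0.000928). Adam8, a membrane protease of leukocytes (ENSMUSG00000025473, chromosome 7, 139978932 to 139992562), had 8.92 and 5.27 CPM in the KO libraries, against 48.7 and 42.8 CPM in the WT libraries (log2 fold change -2.70 ± 0.37, adjusted p = 0.00196). Mmp10, the stromelysin of wound edges, was named after its values were seen and had 5.55 and 2.23 CPM in KO, against 62.9 and 48.7 CPM in WT (log2 fold change -3.87 ± 0.60, adjusted p = 0.00593). Those calls held with any 1 library left out. Mmp3, a stromelysin of fibroblasts, had 30.0 and 13.6 CPM in KO, against 159 and 165 CPM in WT (log2 fold change -2.90 ± 0.65, adjusted p = 0.0244). Mmp13, a collagenase, had 13.9 and 6.03 CPM in KO, against 171 and 111 CPM in WT (log2 fold change -3.83 ± 0.83, adjusted p = 0.0222). Mmp9, a gelatinase stored by neutrophils, had 6.69 and 2.48 CPM in KO, against 67.6 and 50.5 CPM in WT (log2 fold change -3.71 ± 0.70, adjusted p = 0.0127). The last 3 were named after their values were seen. Mmp3 lost its call without KO 1, KO 2, WT 1 or WT 2 (adjusted p 0.0614 to 0.126), Mmp13 without KO 1, KO 2, WT 1 or WT 2 (adjusted p 0.0651 to 0.129) and Mmp9 without KO 2 or WT 2 (adjusted p 0.0515 to 0.0768). Mmp8 and Mmp9 stand in the neutrophil list as well, and the number of protease and inhibitor genes that fell was 5 without KO 2 and 7 without WT 2.

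Fibroblast and endothelial genes were lower in KO. Of 17 fibroblast genes 8 fell, among them Cxcl12 given above and Pdgfra, the platelet-derived growth factor receptor of mesenchyme, with 63.1 and 54.9 CPM in KO, against 90.4 and 117 CPM in WT (log2 fold change -0.82 ± 0.15, adjusted p = 0.00349). The number that fell was 2 without KO 2 and 3 without WT 2. Of 15 endothelial genes 8 fell, with a median log2 fold change of -0.63. Vwf, the von Willebrand factor of vessel walls (ENSMUSG00000001930, chromosome 6, 125546774 to 125686679), had 21.5 and 16.6 CPM in the KO libraries, against 37.5 and 53.3 CPM in the WT libraries (log2 fold change -1.25 ± 0.18, adjusted p = 0.00126). Cdh5, the cadherin of endothelial junctions (ENSMUSG00000031871, chromosome 8, 104101625 to 104144511), had 12.7 and 12.1 CPM in the KO libraries, against 26.1 and 40.5 CPM in the WT libraries (log2 fold change -1.43 ± 0.21, adjusted p = 0.00146). Both held with any 1 library left out, and the number of endothelial genes that fell was 4 without KO 2 and 5 without WT 2. Summed endothelial markers came to 293 and 256 CPM in KO, against 423 and 523 CPM in WT.

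Smooth muscle genes rose in KO, for 12 of 16 tested against 9.59% of all genes, with a median log2 fold change of 1.01. Myl9, a myosin light chain of smooth muscle (ENSMUSG00000067818, chromosome 2, 156775420 to 156781658), had 492 and 417 CPM in the KO libraries, against 167 and 237 CPM in the WT libraries (log2 fold change 1.17 ± 0.15, adjusted p = 0.000738). Synm, the intermediate filament protein synemin (ENSMUSG00000030554, chromosome 7, 67730160 to 67759742), had 189 and 169 CPM in the KO libraries, against 39.7 and 77.6 CPM in the WT libraries (log2 fold change 1.61 ± 0.27, adjusted p = 0.00503). Des, the filament protein desmin, was named after its values were seen and had 807 and 711 CPM in KO, against 207 and 372 CPM in WT (log2 fold change 1.39 ± 0.26, adjusted p = 0.00573). KO libraries lay close together, while WT 1 was the lowest library. Actg2, the enteric form of smooth muscle actin, had 815 and 799 CPM in KO, against 166 and 401 CPM in WT (log2 fold change 1.51 ± 0.37, adjusted p = 0.0259), and Myh11, the myosin heavy chain, had 1328 and 1123 CPM in KO, against 460.2 and 816 CPM in WT (log2 fold change 0.94 ± 0.28, adjusted p = 0.0383), both likewise named. Actg2 lost its call without KO 1 or KO 2 (adjusted p 0.0965 to 0.0981) and Myh11 without KO 1, KO 2 or WT 1 (adjusted p 0.0870 to 0.166). Actg2 had a log2 fold change of 2.28 without WT 2 and Myh11 had a log2 fold change of 0.58 without WT 1. Summed over the list the level was 6712 and 5939 CPM in KO, against 2228 and 3750.1 CPM in WT. These genes thus held a larger share of the counts in KO. Whether the KO pieces held more muscle was not tested, nor was the part of this rise in the other results. The number that rose was 5 without KO 1. In the Il1f5 line the summed level was 4883 to 6834 CPM in the 3 libraries labelled Il1f5 KO and 2907 to 3261 CPM in the 3 libraries labelled Il1f5 WT.

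Genes of other cells of the gut wall were counted as well. Of 17 enteric neuron and glia genes 1 rose and 1 fell (11.8%, beside 19.6% of all genes called). Ret, the receptor that guides enteric neurons, fell, with 15.2 and 11.9 CPM in KO, against 32.9 and 28.9 CPM in WT (log2 fold change -1.19 ± 0.19, adjusted p = 0.00221). For genes of interstitial cells of Cajal edgeR called 0 of 4, with 1 higher and 0 lower at an unadjusted p under 0.05, and DESeq2 called 1 higher and 0 lower. Thbs4, of the matrix around these cells, had 69.2 and 104 CPM in KO, against 37.3 and 47.8 CPM in WT, and Ano1, their chloride channel, had 39.01 and 43.8 CPM in KO, against 38.0 and 41.4 CPM in WT. Among 11 adipocyte genes 1 was called (9.09%, beside 19.6% of all genes). Pparg, a nuclear receptor that colonocytes express as well, rose, with 131 and 124 CPM in KO, against 89.9 and 64.0 CPM in WT (log2 fold change 0.73 ± 0.17, adjusted p = 0.0154). Pparg lost its call without KO 1, KO 2 or WT 2 (adjusted p 0.0602 to 0.110). Cd36, a fatty acid transporter, had 14.4 and 14.9 CPM in KO, against 23.7 and 35.7 CPM in WT and was not called. For erythrocyte genes edgeR called 0 of 5, with 0 higher and 1 lower at an unadjusted p under 0.05, and DESeq2 called 0 higher and 0 lower. Alas2 had 0.904 and 0.355 CPM in KO, against 1.80 and 1.66 CPM in WT, and Hbb-bt had 2.71 and 0.912 CPM in KO, against 4.06 and 1.86 CPM in WT. Of 7 mesothelial genes Krt19, which colon epithelium expresses strongly, and Upk1b rose (28.6%, beside 9.59% rising and 19.6% called either way among all genes). Krt19 had 3076 and 3009 CPM in KO, against 2278 and 1905 CPM in WT (log2 fold change 0.54 ± 0.13, adjusted p = 0.0168), and Upk1b had 4.58 and 5.57 CPM in KO, against 2.36 and 2.77 CPM in WT (log2 fold change 0.99 ± 0.26, adjusted p = 0.0209). Krt19 lost its call without KO 1, KO 2 or WT 2 (adjusted p 0.0811 to 0.106) and Upk1b without KO 1, KO 2, WT 1 or WT 2 (adjusted p 0.0530 to 0.141).

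**Figure D4:**
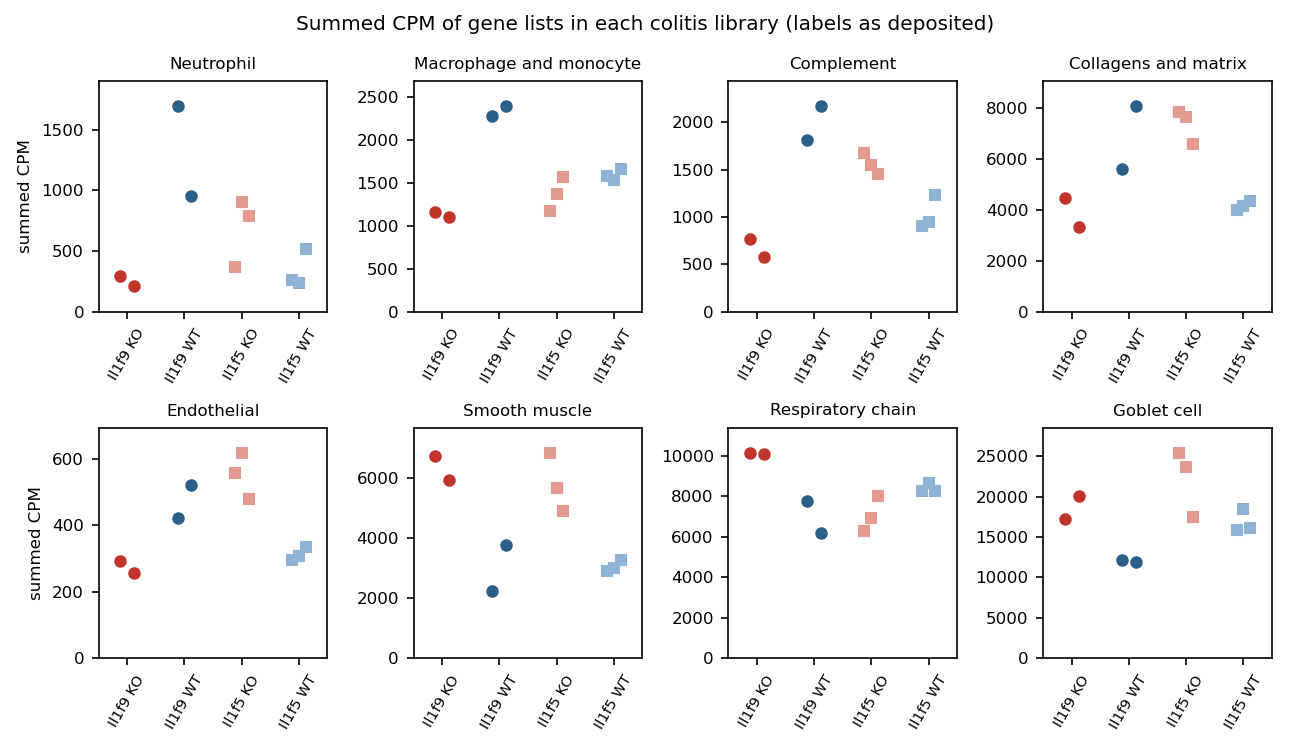
Summed CPM of the members of 8 gene lists in each of the 10 colitis libraries, with 1 point per library, by group (Il1f9 KO and WT, n = 2 each, and Il1f5 KO and WT as labelled, n = 3 each). For neutrophil genes the Il1f9 KO libraries stand at 296 and 214, against 1695 and 958 in Il1f9 WT, which are the highest 2 of the 10 libraries. Most of the Il1f9 KO sums for this list came from Ly6g, which was not called.

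Genes of the absorptive colonocyte rose for 8 of 28 tested and fell for 2 (35.7% called, beside 19.6% of all genes). Aqp8, a water channel of surface colonocytes (ENSMUSG00000030762, chromosome 7, 123462291 to 123468004), had 455 and 449.995 CPM in the KO libraries, against 138 and 121 CPM in the WT libraries (log2 fold change 1.81 ± 0.14, adjusted p = 8.54e-05). Slc20a1, a phosphate transporter, had 90.0 and 103 CPM in KO, against 53.9 and 52.2 CPM in WT (log2 fold change 0.86 ± 0.15, adjusted p = 0.00343). Car1, named after its values were seen (ENSMUSG00000027556, chromosome 3, 14766216 to 14808368), had 9857 and 9799 CPM in the KO libraries, against 4852 and 2473 CPM in the WT libraries (log2 fold change 1.42 ± 0.31, adjusted p = 0.0102). All 3 calls held with any 1 library left out, and WT 2 was the lowest library for each. The 2 genes that fell were Ms4a12 and Scnn1b, a subunit of the sodium channel ENaC. The number that rose was 5 without KO 2 and 3 without WT 2, and the number that fell was 1 without KO 2.

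Goblet cell genes rose for 5 of 18 tested (27.8%, beside 9.59% rising and 19.6% called in either direction among all genes). Spink4, a protease inhibitor of goblet cells (ENSMUSG00000028415, chromosome 4, 40920052 to 40931395), had 460.1 and 512 CPM in the KO libraries, against 225 and 196 CPM in the WT libraries (log2 fold change 1.21 ± 0.14, adjusted p = 0.000385). Zg16, a lectin that binds Gram-positive bacteria in mucus (ENSMUSG00000049350, chromosome 7, 127050156 to 127087328), had 1976 and 2379.9 CPM in the KO libraries, against 1159 and 952 CPM in the WT libraries (log2 fold change 1.05 ± 0.17, adjusted p = 0.00196). Clca1, a metalloprotease of the mucus layer, had 2328 and 3557 CPM in KO, against 657 and 620.04 CPM in WT (log2 fold change 2.20 ± 0.34, adjusted p = 0.00264). In these genes both KO libraries lay above both WT libraries. Foxa3, a transcription factor of secretory cells, rose by 0.56 and B3gnt6, a glycosyltransferase that builds mucin sugars, by 0.55 on the log2 scale. Clca1 lost its call without WT 2 (adjusted p 0.0542), Foxa3 without KO 2, WT 1 or WT 2 (adjusted p 0.0508 to 0.151) and B3gnt6 without KO 1, KO 2, WT 1 or WT 2 (adjusted p 0.0652 to 0.189). The mucin gene Muc2, named after its values were seen, had 6206 and 6409 CPM in KO, against 3919 and 4707 CPM in WT and missed the threshold (log2 fold change 0.55 ± 0.21, adjusted p = 0.0862), and the cell fate factors Atoh1 and Spdef were not called either. Without WT 1 the goblet gene Ern2 fell, and without WT 2 Muc13 fell.

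Tight junction genes moved in both directions, with 3 of 18 higher and 2 lower (27.8% called, beside 19.6% of all genes). Cldn4 (ENSMUSG00000047501, chromosome 5, 134945119 to 134946934) had 157 and 173 CPM in the KO libraries, against 82.9 and 85.6 CPM in the WT libraries (log2 fold change 0.97 ± 0.13, adjusted p = 0.000837). Cldn23, a claudin of surface colonocytes, had 99.1 and 80.9 CPM in KO, against 53.1 and 39.2 CPM in WT (log2 fold change 0.96 ± 0.16, adjusted p = 0.00271). Cldn1, a claudin raised in injured epithelium, had 0.904 and 0.811 CPM in KO, against 2.16 and 2.36 CPM in WT (log2 fold change -1.39 ± 0.34, adjusted p = 0.0164). F11r, the adhesion molecule JAM-A, rose (0.40 ± 0.11, adjusted p = 0.0272), and the scaffold gene Cgn fell (-0.36 ± 0.10, adjusted p = 0.0289), with the log2 fold change in brackets. Cldn1 lost its call without KO 1, KO 2 or WT 2 (adjusted p 0.0716 to 0.101), F11r without KO 1, KO 2 or WT 2 (adjusted p 0.0811 to 0.196) and Cgn without KO 1 or WT 2 (adjusted p 0.14003 to 0.226). F11r had a log2 fold change of 0.25 without WT 2. Without WT 1, 6 junction genes rose, with Ocln, Cldn3 and Cldn7 added.

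Among 18 stem cell and Wnt target genes Sox9 rose and Olfm4, Smoc2 and Ephb2 fell (22.2%, beside 19.6% of all genes called). Olfm4, a secreted protein raised in inflamed mouse colon (ENSMUSG00000022026, chromosome 14, 79984081 to 80023139), had 1 and 2 counts in KO, against 76 and 48 counts in WT, 38.2-fold lower (95% interval from counting error 12.8 to 188, adjusted p = 0.00497). Sox9, a transcription factor of crypt cells, had 67.6 and 87.4 CPM in KO, against 53.3 and 44.2 CPM in WT (log2 fold change 0.67 ± 0.15, adjusted p = 0.00931). Smoc2, a matrix protein of stem cells, had 25.6 and 21.9 CPM in KO, against 42.1 and 31.4 CPM in WT (log2 fold change -0.63 ± 0.18, adjusted p = 0.0286), and Ephb2, a receptor that positions crypt cells, had 51.7 and 63.7 CPM in KO, against 83.7 and 85.7 CPM in WT (log2 fold change -0.55 ± 0.17, adjusted p = 0.0450). Sox9 lost its call without KO 2 or WT 2 (adjusted p 0.0890 to 0.0951), Smoc2 without KO 1, KO 2 or WT 1 (adjusted p 0.0683 to 0.170) and Ephb2 without KO 1, KO 2, WT 1 or WT 2 (adjusted p 0.0607 to 0.252). Smoc2 had a log2 fold change of -0.41 without WT 1. Without WT 1 Axin2 rose as well. Of 22 Wnt ligands and regulators, Sfrp1, Fzd1, Lrp5 and Wnt2b fell and Fzd5 rose (22.7%, beside 19.6% of all genes called). Sfrp1, a secreted inhibitor, had 54.0 and 33.8 CPM in KO, against 91.4 and 95.7 CPM in WT (log2 fold change -1.09 ± 0.17, adjusted p = 0.00219). Fzd1, a receptor, had 38.2 and 42.2 CPM in KO, against 66.4 and 85.5 CPM in WT (log2 fold change -0.92 ± 0.16, adjusted p = 0.00279). Lrp5, a co-receptor, fell (-0.55 ± 0.11, adjusted p = 0.00550), as did the ligand gene Wnt2b (-1.22 ± 0.30, adjusted p = 0.0167), and the receptor gene Fzd5 rose (0.34 ± 0.11, adjusted p = 0.0472). Lrp5 lost its call without KO 1 (adjusted p 0.0567), Wnt2b without KO 1 or WT 2 (adjusted p 0.114 to 0.118) and Fzd5 without KO 1, KO 2 or WT 2 (adjusted p 0.150 to 0.340). Fzd5 had a log2 fold change of 0.19 without WT 2.

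Of 17 BMP pathway genes 1 was called (5.88%, beside 19.6% of all genes). Id1, a direct BMP target, rose, with 194 and 214 CPM in KO, against 148 and 84.5 CPM in WT (log2 fold change 0.81 ± 0.22, adjusted p = 0.0282), while Id2 had 18.1 and 17.8 CPM in KO, against 24.5 and 25.2 CPM in WT and was not called. Id1 lost its call without KO 1, KO 2 or WT 2 (adjusted p 0.0813 to 0.137). Id1 had a log2 fold change of 1.27 without WT 1 and Id1 had a log2 fold change of 0.46 without WT 2. Among 13 genes of EGF receptor signalling 4 fell (30.8%, beside 9.98% falling and 19.6% called in either direction among all genes). Egfr, the receptor, had 47.0 and 37.6 CPM in KO, against 57.1 and 60.1 CPM in WT (log2 fold change -0.47 ± 0.12, adjusted p = 0.0180). The ligand genes Egf (-1.01 ± 0.28, adjusted p = 0.0285), Epgn (-1.33 ± 0.38, adjusted p = 0.0298) and Nrg1 (-1.56 ± 0.45, adjusted p = 0.0485) fell as well. Egfr lost its call without KO 2 or WT 2 (adjusted p 0.0936 to 0.149), Egf without KO 1, KO 2, WT 1 or WT 2 (adjusted p 0.0564 to 0.169) and Epgn without KO 2, WT 1 or WT 2 (adjusted p 0.0628 to 0.201). Nrg1 lost its call without KO 1, KO 2, WT 1 or WT 2 (adjusted p 0.0588 to 0.258).

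Of 21 genes of wound-associated epithelium 2 rose and 3 fell (23.8%, beside 19.6% of all genes called). Itga2, an integrin chain that binds collagen (ENSMUSG00000015533, chromosome 13, 114833081 to 114932100), had 62.1 and 64.2 CPM in the KO libraries, against 119 and 124 CPM in the WT libraries (log2 fold change -0.94 ± 0.10, adjusted p = 0.000258), and Mmp7 fell as given above. Spp1, which encodes osteopontin, had 1.45 and 1.32 CPM in KO, against 8.01 and 3.32 CPM in WT (log2 fold change -2.03 ± 0.59, adjusted p = 0.0353). Sprr1a, a cornified envelope protein, rose, with 39.9 and 48.4 CPM in KO, against 24.9 and 21.7 CPM in WT (log2 fold change 0.92 ± 0.20, adjusted p = 0.00839). Spp1 lost its call without KO 1, KO 2 or WT 1 (adjusted p 0.146 to 0.182) and Sprr1a without KO 2 or WT 2 (adjusted p 0.0721 to 0.0742). Spp1 had a log2 fold change of -1.26 without WT 1. Proliferation genes rose for 2 of 28 (7.14%, beside 9.59% of all genes), although 27 of 28 had a positive log2 fold change, with a median of 0.54. The called genes were Pcna, the clamp of DNA polymerase, with 134 and 169 CPM in KO, against 102 and 66.7 CPM in WT (log2 fold change 0.84 ± 0.23, adjusted p = 0.0320), and Birc5, the mitotic protein survivin, with 76.5 and 69.8 CPM in KO, against 40.1 and 26.4 CPM in WT (log2 fold change 1.14 ± 0.33, adjusted p = 0.0425). Pcna lost its call without KO 1, KO 2 or WT 2 (adjusted p 0.0551 to 0.186) and Birc5 without KO 1, KO 2 or WT 2 (adjusted p 0.119 to 0.239). Pcna had a log2 fold change of 0.56 without WT 2. Without WT 1, 7 proliferation genes rose. For enteroendocrine genes edgeR called 0 of 16, with 2 higher and 1 lower at an unadjusted p under 0.05, and DESeq2 called 1 higher and 0 lower, and Tph1, which makes serotonin, had 10.1 and 11.7 CPM in KO, against 13.5 and 17.1 CPM in WT. Nts, which encodes neurotensin, had 24.1 and 27.7 CPM in KO, against 12.6 and 16.1 CPM in WT. For tuft cell genes edgeR called 0 of 10, with 2 higher and 1 lower at an unadjusted p under 0.05, and DESeq2 called 0 higher and 0 lower, and Pou2f3, their transcription factor, had 1.33 and 1.37 CPM in KO, against 0.514 and 0.453 CPM in WT. Alox5, a leukotriene enzyme, had 3.20 and 3.75 CPM in KO, against 4.88 and 5.23 CPM in WT.

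Nuclear genes of the respiratory chain rose almost throughout, for 21 of 22 tested, with a median log2 fold change of 0.60. Cox6c, a subunit of cytochrome c oxidase (ENSMUSG00000014313, chromosome 15, 35925886 to 35938246), had 408 and 380.4 CPM in the KO libraries, against 245 and 200.5 CPM in the WT libraries (log2 fold change 0.82 ± 0.12, adjusted p = 0.00153). Ndufa1, a subunit of complex I (ENSMUSG00000016427, chromosome X, 37187588 to 37191163), had 121 and 121 CPM in the KO libraries, against 76.9 and 56.7 CPM in the WT libraries (log2 fold change 0.86 ± 0.14, adjusted p = 0.00197). Both held with any 1 library left out. Atp5b, of ATP synthase, was the member not called, with 2023 and 2182 CPM in KO, against 1886 and 1507 CPM in WT (log2 fold change 0.31 ± 0.16, adjusted p = 0.195). The number that rose was 6 without KO 1, 7 without KO 2 and 6 without WT 2. Summed over the list, the level was 10162 and 10086 CPM in KO, against 7794 and 6208 CPM in WT.

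Fatty acid oxidation genes rose for 5 of 22 tested and fell for 2 (31.8% called, beside 19.6% of all genes). Fabp2, an intestinal fatty acid carrier (ENSMUSG00000023057, chromosome 3, 122895072 to 122899506), had 369 and 390.05 CPM in the KO libraries, against 185 and 119 CPM in the WT libraries (log2 fold change 1.32 ± 0.18, adjusted p = 0.000846). Bdh1, which interconverts ketone bodies, had 216 and 211 CPM in KO, against 123 and 103 CPM in WT (log2 fold change 0.92 ± 0.15, adjusted p = 0.00210). The other genes that rose were Hadh, Acads and Acadm, and those that fell were Angptl4 and Hadha. The number that rose was 3 without KO 1 and 3 without WT 2. Angptl4 lost its call without KO 1, KO 2 or WT 2 (adjusted p 0.0538 to 0.158) and Hadha without KO 1, KO 2, WT 1 or WT 2 (adjusted p 0.0544 to 0.158). Of 22 glycolysis and hypoxia genes 6 fell and 1 rose (31.8% called, beside 19.6% of all genes). Summed over the list, the level overlapped between the groups, at 7721 and 7582 CPM in KO, against 8045 and 6632 CPM in WT. Pfkfb3, which makes the activator of phosphofructokinase (ENSMUSG00000026773, chromosome 2, 11471433 to 11554077), had 29.5 and 26.1 CPM in the KO libraries, against 101 and 81.2 CPM in the WT libraries (log2 fold change -1.72 ± 0.18, adjusted p = 0.000285). Hk2, the inducible hexokinase, had 221 and 308 CPM in KO, against 508 and 579 CPM in WT (log2 fold change -1.04 ± 0.15, adjusted p = 0.00115). Slc16a3, the lactate exporter, named after its values were seen, had 28.7 and 21.4 CPM in KO, against 82.6 and 61.9 CPM in WT (log2 fold change -1.53 ± 0.29, adjusted p = 0.00817). Slc16a3 lost its call without KO 2 (adjusted p 0.0642). The gene that rose was Pfkl, and without WT 1, 3 rose.

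Xenobiotic metabolism genes rose for 14 of 27 tested, with a median log2 fold change of 0.62. Ces1g, a carboxylesterase (ENSMUSG00000057074, chromosome 8, 93302369 to 93337308), had 73.0 and 109.7 CPM in the KO libraries, against 20.4 and 17.5 CPM in the WT libraries (log2 fold change 2.27 ± 0.20, adjusted p = 0.000120). Sult1a1, a sulfotransferase (ENSMUSG00000030711, chromosome 7, 126672865 to 126676432), had 247 and 205 CPM in the KO libraries, against 109 and 109 CPM in the WT libraries (log2 fold change 1.05 ± 0.13, adjusted p = 0.000582). Nqo1, a quinone reductase named after its values were seen, had 58.8 and 71.1 CPM in KO, against 19.6 and 15.0 CPM in WT (log2 fold change 1.91 ± 0.24, adjusted p = 0.000898). These calls held with any 1 library left out. Cyp2c55, a cytochrome P450 abundant in colon, and Maoa, monoamine oxidase A, were named after their values were seen. Cyp2c55 had 3123 and 3395 CPM in KO, against 1098 and 887 CPM in WT (log2 fold change 1.72 ± 0.36, adjusted p = 0.0122), and Maoa had 898 and 1013 CPM in KO, against 458 and 304 CPM in WT (log2 fold change 1.33 ± 0.22, adjusted p = 0.00249). Cyp2c55 lost its call without KO 2, WT 1 or WT 2 (adjusted p 0.0518 to 0.128). The number that rose was 6 without KO 2 and 6 without WT 2.

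Cholesterol synthesis genes rose for 3 of 20 (15.0%, beside 9.59% rising and 19.6% called in either direction among all genes). They were Mvk (0.83 ± 0.17, adjusted p = 0.00709), Dhcr7 (0.62 ± 0.14, adjusted p = 0.0116) and Fdft1 (0.64 ± 0.19, adjusted p = 0.0429), with the log2 fold change in brackets. Mvk lost its call without WT 2 (adjusted p 0.0606), Dhcr7 without KO 1, KO 2 or WT 2 (adjusted p 0.0525 to 0.108) and Fdft1 without KO 1, KO 2 or WT 2 (adjusted p 0.0687 to 0.265). Fdft1 had a log2 fold change of 0.42 without WT 2. Without WT 1, 5 of them rose. Prostaglandin pathway genes rose for 4 of 17 and fell for 3 (41.2% called, beside 19.6% of all genes). Ptgr1, which inactivates leukotrienes and prostaglandins, had 32.7 and 38.0 CPM in KO, against 22.0 and 20.6 CPM in WT (log2 fold change 0.73 ± 0.14, adjusted p = 0.00563), and Tbxas1, the thromboxane synthase, had 2.23 and 2.38 CPM in KO, against 5.14 and 7.40 CPM in WT (log2 fold change -1.44 ± 0.28, adjusted p = 0.00577). The other genes that rose were Ptges3, Ptger4 and Hpgd, and the others that fell were Ptges and Ptgir. Ptgr1 lost its call without KO 2 (adjusted p 0.0582), Tbxas1 without WT 2 (adjusted p 0.0515) and Ptges3 without KO 2 or WT 2 (adjusted p 0.0632 to 0.0686). Ptger4 lost its call without KO 2 (adjusted p 0.0638), Hpgd without KO 1, KO 2 or WT 2 (adjusted p 0.0512 to 0.141) and Ptges without KO 1, KO 2, WT 1 or WT 2 (adjusted p 0.0711 to 0.129). Ptgir lost its call without KO 1, KO 2 or WT 2 (adjusted p 0.0649 to 0.168).

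Genes of the unfolded protein response fell for 8 of 22 tested and rose for 2. Xbp1 fell as given above, and Hspa5, the chaperone BiP of the endoplasmic reticulum, named after its values were seen, had 607 and 656 CPM in KO, against 946 and 999 CPM in WT (log2 fold change -0.62 ± 0.11, adjusted p = 0.00403). Atf4, a transcription factor of the integrated stress response, rose, with 294 and 271 CPM in KO, against 201 and 198 CPM in WT (log2 fold change 0.50 ± 0.089, adjusted p = 0.00349). Each of these held with any 1 library left out, while the number that fell was 3 without KO 1, 4 without KO 2 and 4 without WT 2. Targets of p53 fell for 5 of 22 (22.7%, beside 9.98% falling and 19.6% called in either direction among all genes). Zmat3, an RNA-binding protein, had 24.9 and 23.9 CPM in KO, against 46.8 and 38.3 CPM in WT (log2 fold change -0.80 ± 0.17, adjusted p = 0.00771). Ccng1, a cyclin, had 80.0 and 84.0 CPM in KO, against 199 and 120.1 CPM in WT (log2 fold change -0.96 ± 0.20, adjusted p = 0.00838). Eda2r, a death receptor, had 1.39 and 1.57 CPM in KO, against 9.81 and 3.92 CPM in WT (log2 fold change -2.21 ± 0.48, adjusted p = 0.00906). Aen (-0.61 ± 0.14, adjusted p = 0.0133) and Mdm2 (-0.36 ± 0.10, adjusted p = 0.0274) fell as well. Zmat3 lost its call without KO 2 (adjusted p 0.0569), Ccng1 without KO 1 or KO 2 (adjusted p 0.05004 to 0.0608) and Eda2r without KO 1, KO 2 or WT 1 (adjusted p 0.0593 to 0.0668). Aen lost its call without KO 1 or WT 1 (adjusted p 0.0526 to 0.110) and Mdm2 without KO 1, KO 2, WT 1 or WT 2 (adjusted p 0.0545 to 0.168). Ccng1 had a log2 fold change of -0.55 without WT 1 and Eda2r had a log2 fold change of -1.40 without WT 1. Without WT 1, 2 targets rose.

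Immediate early and heat shock genes rose for 4 of 24 (16.7%, beside 9.59% rising and 19.6% called in either direction among all genes). Fosb, a subunit of AP-1, had 8.86 and 15.6 CPM in KO, against 2.72 and 3.47 CPM in WT (log2 fold change 1.98 ± 0.44, adjusted p = 0.0118). Atf3, a stress-induced repressor, had 51.8 and 76.4 CPM in KO, against 36.2 and 35.8 CPM in WT (log2 fold change 0.83 ± 0.18, adjusted p = 0.0102). Hsp90aa1 (0.64 ± 0.16, adjusted p = 0.0185) and Klf4 (0.49 ± 0.15, adjusted p = 0.0382) rose as well. Fosb lost its call without KO 2, WT 1 or WT 2 (adjusted p 0.0668 to 0.0823), Atf3 without KO 2 or WT 2 (adjusted p 0.0765 to 0.100) and Hsp90aa1 without KO 2 or WT 2 (adjusted p 0.129 to 0.143). Klf4 lost its call without KO 1, KO 2 or WT 2 (adjusted p 0.0954 to 0.267). Atf3 had a log2 fold change of 0.51 without KO 2 and Klf4 had a log2 fold change of 0.30 without WT 2. Of 19 circadian clock genes 3 were called (15.8%, beside 19.6% of all genes). Ciart (-1.71 ± 0.36, adjusted p = 0.00792) and Tef (-0.78 ± 0.20, adjusted p = 0.0225) fell and Npas2 (0.55 ± 0.16, adjusted p = 0.0328) rose. Ciart lost its call without KO 2 or WT 2 (adjusted p 0.0672 to 0.0685), Tef without KO 2, WT 1 or WT 2 (adjusted p 0.0832 to 0.147) and Npas2 without KO 1, KO 2 or WT 2 (adjusted p 0.110 to 0.209). The time of day of collection is not given in the labels.

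Position along the gut and tissue next to the anus were checked, because the piece lay close to it. Of 14 colon identity genes 1 was called (7.14%, beside 19.6% of all genes). Gata4, a factor of the upper intestine, fell at a low level, with 0.663 and 0.760 CPM in KO, against 3.60 and 2.87 CPM in WT (log2 fold change -2.17 ± 0.42, adjusted p = 0.00518). Hoxb13 had 15.9 and 57.3 CPM in KO, against 7.96 and 7.24 CPM in WT and missed the threshold (log2 fold change 2.27 ± 0.77, adjusted p = 0.0846). Without KO 1 Hoxb13 was called higher, and without WT 1 Cdx2 was. Only 10 of 25 genes of stratified squamous epithelium could be tested, and the defining markers Ivl, Flg, Dsg1a, Sprr1b and Sprr3 had 0 counts in all 4 libraries. Krt17 had 5.31 and 3.95 CPM in KO, against 0.308 and 0.906 CPM in WT (log2 fold change 2.91 ± 0.45, adjusted p = 0.00169), and Krt14 had 2.59 and 2.28 CPM in KO, against 0.411 and 0.302 CPM in WT (log2 fold change 2.75 ± 0.43, adjusted p = 0.00192). Krt10 rose as well (0.79 ± 0.23, adjusted p = 0.0342). Krt10 lost its call without KO 1, KO 2, WT 1 or WT 2 (adjusted p 0.0746 to 0.183). Summed squamous markers came to 30.2 and 26.9 CPM in KO, against 26.5 and 23.2 CPM in WT. Of 8 skeletal muscle genes 1 was called (12.5%, beside 19.6% of all genes). Ckm, muscle creatine kinase, rose, with 7.84 and 7.91 CPM in KO, against 3.34 and 4.58 CPM in WT (log2 fold change 0.99 ± 0.25, adjusted p = 0.0170), while Atp2a1, the calcium pump of fast muscle, had 0.181 and 0.203 CPM in KO, against 0.462 and 0.402 CPM in WT and was not called. Ckm lost its call without KO 1, KO 2 or WT 1 (adjusted p 0.0696 to 0.0887). The part of squamous and skeletal muscle tissue in Krt14, Eno3 and Tnni1 was not tested. For genes linked to sex edgeR called 0 of 4, with 0 higher and 1 lower at an unadjusted p under 0.05, and DESeq2 called 0 higher and 0 lower, and all 4 libraries carried Y-linked transcripts, with 45.6 and 49.2 CPM in KO, against 56.4 and 57.1 CPM in WT for Kdm5d. Uty had 19.7 and 23.4 CPM in KO, against 28.6 and 24.4 CPM in WT.

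Genes near the targeted locus were read for a local pattern. Within 2 Mb of Il1f9 on chromosome 2, 4 of 73 genes rose and 4 fell, or 10.96%, beside 19.6% of all genes. Il1rn, the interleukin-1 receptor antagonist (ENSMUSG00000026981, chromosome 2, 24336853 to 24351494), named after its values were seen, was among those that fell, with 58.5 and 44.1 CPM in the KO libraries, against 151 and 82.1 CPM in the WT libraries (log2 fold change -1.18 ± 0.31, adjusted p = 0.0325). Il1rn lost its call without KO 1, KO 2 or WT 1 (adjusted p 0.0813 to 0.168). Il1rn had a log2 fold change of -0.68 without WT 1. By chromosome the share called ran from 15.5% on chromosome 18 to 22.6% on chromosome 3.

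**Figure D5:**
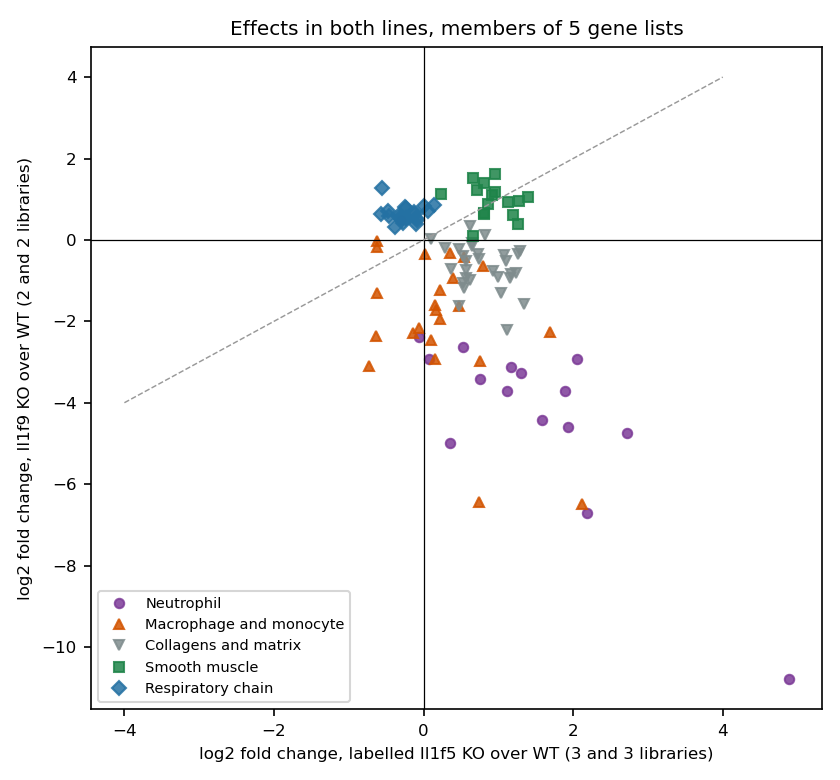
Log2 fold change of Il1f9 KO over WT (vertical axis) against that of libraries labelled Il1f5 KO over WT of their line (horizontal axis) for the tested members of 5 gene lists, with a dashed line where both are equal. Neutrophil genes have medians of -3.56 and 1.24, smooth muscle genes of 1.01 and 0.89. With the Il1f5 labels turned, each horizontal value changes sign.

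The Il1f9 effect was set against the effect in the Il1f5 line, where the antagonist of the same receptor is the labelled target. The counts of Il1f5 go against the labels there, as given above, so each count of differences is given with the labels as they stand and with KO and WT of the Il1f5 line turned, a choice made after the data were seen. The difference of the effects was called for 4535 of 18299 genes (24.8%) with the labels as given, higher in the Il1f9 line for 2189 and lower for 2346 (12.8%). With the labels turned it was called for 3385 (18.5%), higher for 1602 (8.75%) and lower for 1783 (9.74%). For most lists the count depended on the label. Of 16 neutrophil genes 14 had a lower Il1f9 effect with the labels as given and 4 with the labels turned, with list medians of -3.56 in the Il1f9 line and 1.24 (turned, -1.24) in the Il1f5 line. Of 30 matrix genes 25 were lower with the labels as given, against 1 lower and 2 higher with the labels turned, with medians of -0.62 and 0.69 (turned, -0.69). Respiratory chain genes had a higher Il1f9 effect in 22 of 22 with the labels as given and in 4 with the labels turned, with medians of 0.60 and -0.24 (turned, 0.24). Smooth muscle genes differed for 1 of 16 with the labels as given and were higher in the Il1f9 line for 14 with the labels turned, with medians of 1.01 and 0.89 (turned, -0.89). Interferon response genes were higher for 2 of 33 with the labels as given and lower for 14 with the labels turned, with medians of -0.079 and -0.94 (turned, 0.94). Macrophage and monocyte genes moved less between the readings, with 18 of 23 lower as given and 14 turned, and medians of -1.71 and 0.16 (turned, -0.16). With the labels as given, the number of higher and lower calls was 899 and 1063 without Il1f9 KO 2, 800 and 1161 without Il1f9 WT 2, 1439 and 1659 without Il1f5 WT 1, and 1323 and 1523 without Il1f5 WT 2.

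The 6 genes with the smallest p for this difference with the labels as given were genes of myeloid cells and the stromal chemokine gene Cxcl12. Cd33, a sialic acid receptor of myeloid cells, had 4.16 and 3.85 CPM in KO, against 23.4 and 30.8 CPM in WT, and in the other line it had 14.4, 21.4 and 19.7 CPM in libraries labelled Il1f5 KO, against 9.06, 7.42 and 11.4 CPM in libraries labelled Il1f5 WT. Arg1 had 4.82, 5.18 and 6.65 CPM in libraries labelled Il1f5 KO, against 3.11, 3.74 and 3.03 CPM in libraries labelled Il1f5 WT. C5ar1 had 14.6, 18.6 and 20.8 CPM in libraries labelled Il1f5 KO, against 6.00, 7.67 and 8.59 CPM in libraries labelled Il1f5 WT. For each of these 3 genes the Il1f9 WT libraries were the highest of the 10 colitis libraries, and the libraries labelled Il1f5 KO lay above those labelled Il1f5 WT. Lrrc25, a leucine-rich membrane protein of myeloid cells, had a log2 fold change of -2.80 ± 0.20 in the Il1f9 line and 0.38 ± 0.16 in the Il1f5 line. Igsf6, an immunoglobulin superfamily protein of macrophages, had -3.74 ± 0.25 and -0.26 ± 0.18. Cxcl12 had -1.27 ± 0.12 and 0.68 ± 0.093. With the Il1f5 labels turned, the Il1f9 effect was lower for all 6 genes too (adjusted p 2.83e-05 to 0.0225), and the difference on the log2 scale was -0.59 for Cxcl12 and -1.23 for C5ar1, against -1.94 and -3.78 with the labels as given.

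The effect of Il1f9 in colitis was also set against that in colorectal tumours of the same line. The difference was called for 482 of 19514 genes (2.47%), higher in colitis for 160 (0.82%) and lower for 322 (1.65%). These calls rest on a spread shared over all 18 libraries. Fitted on the 8 libraries compared alone, edgeR called 1 gene higher and 0 lower, with 1179 higher and 1358 lower at an unadjusted p under 0.05, and no member of the macrophage, complement or neutrophil list was called. With the replicate block 58 were higher and 174 lower. Macrophage and monocyte genes had a lower effect in colitis for 11 of 23, with list medians of -1.71 in colitis and 0.044 in tumours, and complement genes for 6 of 17, with medians of -1.22 and 0.28 over those 17. Among genes tested with the tumour libraries, neutrophil genes had a lower effect for 2 of 18, with medians of -3.55 and -0.99 over those 18. For antigen presentation genes the medians were -0.050 and 1.43. Smallest p-values belonged to Igsf6, Mpeg1, Myo1f, Csf1r, Cd68 and Ms4a10, whose calls were lost on the 8 libraries alone (adjusted p 0.0659 to 0.0751) and held with any 1 library left out. Mpeg1, the macrophage pore-forming protein perforin-2, had a log2 fold change of -2.49 ± 0.23 in colitis and 0.23 ± 0.22 in tumours. Myo1f, a myosin of leukocytes, had -2.45 ± 0.18 and -0.19 ± 0.20. Csf1r had -2.15 ± 0.18 and 0.044 ± 0.20, and Cd68 had -1.94 ± 0.16 and 0.14 ± 0.19. Ms4a10, a membrane protein of the gut, had -2.29 ± 0.37 and 1.29 ± 0.34. Counts of this difference depended on single libraries, with 27 higher and 108 lower without colitis KO 1, 8 and 41 without colitis KO 2, 11 and 75 without colitis WT 2, and 33 and 64 without tumour WT 2, against 388 and 719 without tumour KO 2, 269 and 756 without tumour KO 1 and 65 and 222 without tumour WT 1.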

How the data were processed

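Poly(A) RNA was sequenced as 150-base paired reads from a library that does not keep strand, per the labels' protocols, so overlapping and antisense genes cannot be told apart. Per the submitters' processing notes the tools were Trim Galore 0.6.4, HISAT2 2.0.5 and featureCounts 2.0.0. No source used here names a genome build. The authors deposited a raw count per gene and an FPKM value, and a table with a log2 fold change and an adjusted p-value per gene, whose test no source used here names. The deposited log2 values and p-values were only set beside the results.

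Counts were scaled with TMM, filtered with filterByExpr and tested with edgeR 4.0.16 (robust quasi-likelihood, limma 3.58.1, R 4.3.3) in 1 model of group means over all 10 colitis libraries, so that the KO and WT libraries share an estimate of spread with the Il1f5 line. The difference from tumours used all 18 libraries. An adjusted p under 0.05 was a call. The model was also run on counts simulated from these genes' means and fitted dispersions, which share its assumptions. In each of 3 draws 200 of 18299 genes were changed, all with a mean above 1 CPM, so genes at a lower level were not covered. Of these changes the model recovered 63.7% of the 2-fold and 87.7% of the 4-fold ones, and 5.81% of its calls were false. Alternatives were DESeq2 1.42.0 (size factors and Wald test), no filter, a replicate block, only the groups compared, a log2 fold change of at least 1, and each library left out, and, chosen after the data were seen, the Il1f5 labels turned. Depth was 17510421 to 20564826 counts.

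Named genes were the IL-36 axis, the 12 largest rises and 12 largest falls among called genes with a mean log2 CPM of at least 1 and no overlap, 2 members of each list with the smallest p, all called members of lists with 5 or fewer, and the 6 smallest p-values of each difference of effects. Predicted genes, pseudogenes and receptor segments were left out. Some genes that this rule names are not reported here. Members and lists were chosen with earlier results of these data known. Tables and figures were made with Python 3.11.15, pandas 2.3.3 and matplotlib 3.10.9.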

Additional observations from a re-analysis of the deposited data

Results flagged for a closer look

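For 6 genes the Il1f9 KO effect in colitis differed from the effect of the libraries labelled Il1f5 KO, by edgeR's quasi-likelihood test of the difference (adjusted p = 0.000291 for each). The Il1f9 effect was lower by a log2 value of -1.94 for Cxcl12, -3.18 for Lrrc25, -3.75 for Cd33, -3.72 for Arg1, -3.49 for Igsf6 and -3.78 for C5ar1. The counts of Il1f5 go against the labels of that line. With KO and WT of that line turned, the difference was -0.59 for Cxcl12, -2.43 for Lrrc25, -1.77 for Cd33, -2.21 for Arg1, -3.999 for Igsf6 and -1.23 for C5ar1 (adjusted p 2.83e-05 to 0.0225).

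For 6 genes the Il1f9 KO effect in colitis differed from that in tumours by the same test. The difference on the log2 scale was -3.33 for Igsf6, -2.72 for Mpeg1, -2.26 for Myo1f and -2.19 for Csf1r (adjusted p = 0.00404 for each). It was -2.08 for Cd68 and -3.57 for Ms4a10 (adjusted p = 0.00423 for each). Fitted on the 8 libraries compared alone, none of the 6 was called (adjusted p 0.0659 to 0.0751).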

How the results depend on the processing

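With a log2 fold change of at least 1 required, 311 genes were higher and 844 lower in KO, against 1754 and 1827 without that demand. Leaving out 1 library gave 508 to 1758 higher and 833 to 1638 lower. The Il1f9 fall was called in every alternative, between -7.17 and -3.91 with a library left out. The difference from the Il1f5 line gave 800 to 2703 higher and 1063 to 3141 lower with a library left out, and a fit of only the groups compared is the same fit there. With KO and WT of the Il1f5 line turned, an alternative chosen after the data were seen, it gave 1602 and 1783. The difference from tumours gave 8 to 388 higher and 41 to 756 lower with a library left out, against 160 and 322. It gave 611 and 697 by DESeq2's Wald test and 631 and 1192 without a filter. Fitted only on the groups compared it gave 1 higher and 0 lower by edgeR, with 1179 higher and 1358 lower at an unadjusted p under 0.05. The cause of these changes was not tested.

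The correlation between same-numbered deviations from the group means was -0.0882 over 18299 genes. With 2 libraries a group this is a single value whose sign turns with the numbering. It cannot decide whether replicate numbers pair the samples. With the replicate block, 1273 genes were higher and 1382 lower in KO, and the difference from the Il1f5 line was called for 1634 and 1696. For the difference from tumours the block gave 58 and 174.

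Of 184 called genes chosen for description other than Il1f9, DESeq2's Wald test lost 1, DESeq2's size factors 1, no filter 27, the block 24, and a left-out library 46 to 85, while the groups compared alone lost 33 of 183. None of these changed sign. With 2 libraries a group, calls rest on a spread shared with the Il1f5 line.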
